A study of Homo sapiens with 6 samples.

Results

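The genes of fatty acid synthesis and desaturation followed here were ACLY, ACACA, ACACB, FASN, ELOVL6, SCD, FADS1, FADS2, GPAM and MLXIPL. They were listed by name for their place in the pathway, with earlier results of these data known, and they make up 10 of the 57500 genes counted in the files. All 10 were among the 15492 genes with enough counts to be tested. The samples were 6 libraries of total RNA from HepG2, a line derived from a human hepatocellular carcinoma that keeps many functions of hepatocytes. In 3 of them (vehicle) the wild-type cells had received vehicle for 24 h, and in the other 3 (glycine) wild-type cells had received glycine at 10 mM for 24 h. Both groups had been grown in low-glucose medium with fetal bovine serum, in which glycine is already present at a lower concentration. The study asked how glycine, as a source of endogenous cyanide, alters cell metabolism, and the 6 libraries address its transcriptional side. Libraries of a group were labelled as independent replicates of 1 cell line, so the tests measure the spread between cultures of HepG2 and not between people.

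De novo lipogenesis turns surplus carbohydrate carbon into fat and is a central task of the liver. Citrate leaves the mitochondrion and is split to acetyl-CoA in the cytosol, acetyl-CoA is carboxylated to malonyl-CoA, and fatty acid synthase builds palmitate from these units with NADPH as reductant. Palmitate is then elongated and desaturated and joined to glycerol 3-phosphate, the first step towards triglyceride and phospholipid. Transcription of these genes is driven mainly by SREBP-1c, which answers to insulin and sterols, and by ChREBP, the carbohydrate response factor encoded by MLXIPL.

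The 10 genes did not share a direction of change. Of the 10 genes, 2 fell with glycine, 0 rose and 8 did not pass the test at an adjusted p of 0.05 (edgeR quasi-likelihood test, Benjamini-Hochberg adjustment over the 15492 genes). MLXIPL fell by 0.33 ± 0.0791 (SE) on the log2 scale, and ACACB, the gene of the mitochondrial acetyl-CoA carboxylase, fell by 0.32 ± 0.0968 (SE). In bulk RNA such as this, fewer cells that express a gene and less of its RNA per cell cannot be told apart. Over all tested genes, 13.3% passed the same test, 6.71% higher and 6.54% lower. The median log2 change of the 10 genes was −0.01, with 5 above 0 and 5 below, beside a median of 0.0035 over all tested genes. Levels of the vehicle and glycine libraries did not overlap for 5 of the 10 genes (ACLY, ACACB, ELOVL6, FADS1 and MLXIPL), against 31.6% of all tested genes.

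Levels are given as CPM (counts divided by the size of the library, in units of 1e6 counts after TMM scaling, the trimmed mean of M values), and as CPM per kilobase of exon (RPKM) where genes are compared with each other. Total counts ran from 31795489 to 58815986, so that 1 count was worth between 0.017 and 0.0315 CPM before TMM scaling. The lowest of the 10 genes still had 697 counts in its poorest library. The labelled cell type was checked on 10 hepatocyte markers, whose summed level was 31972 to 36315 CPM with vehicle and 27998 to 31922 CPM with glycine. Of these markers 0 rose and 2 fell, APOA1 by a log2 change of −0.26 (edgeR adjusted p = 0.0483, a call that held in 8 of 17 alternative fits) and TTR by −0.32 (edgeR adjusted p = 0.00921). Over all tested genes, 6.71% passed higher and 6.54% lower. The 10 hepatocyte markers had a median log2 change of −0.23, with 2 above 0 and 8 below, and ran from −0.49 to 0.03. Of 8 markers of leukocytes, endothelium, fibroblasts, macrophages and adipocytes, 5 were tested and 2 rose, COL1A1 by 1.03 (edgeR adjusted p = 0.000585) and CD68, 85.8% of whose exon length overlaps other genes, by 0.63 (edgeR adjusted p = 0.0226), while the adipocyte marker ADIPOQ had 0 counts and the leukocyte marker PTPRC had 9 in all libraries together. The 5 tested had a median log2 change of 0.15, with 3 above 0 and 2 below, and ran from −0.44 to 1.03. The summed level of all 8 was 8.91 to 9.36 CPM with vehicle and 10.9 to 12.2 CPM with glycine. The part of either marker list in the results below was not tested.

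Promoter windows of RefSeq (GRCh38.p14), each running from 250 bases before to 50 bases after an annotated transcription start, were found for 9 of the 10 genes, 14 windows in all; FASN has no entry in that table. Both strands were searched for a sterol regulatory element of the form TCACNCCAC, an E-box CACGTG of the kind within carbohydrate response elements, a CCAAT box (CCAAT) and a GC box (GGGCGG), with overlapping matches counted each. The sterol regulatory element was in 0 of the 14 windows and in 1.13% of all 35116 windows of the table, and the E-box was in 0 of 14 and in 7.26% of all. The CCAAT box was in 8 of the 14, from 6 of the 9 genes, and in 34.6% of all windows. A GC box was in 11 of the 14, with at least 1 such window for each of the 9 genes, and in 45.0% of all. The 14 windows are not all distinct. Those of ACLY overlap and hold the same CCAAT and GC boxes, and those of FADS2 overlap in part. These are matches of letters within 300 bases and not measured sites. The windows of MLXIPL and ACACB are shown because those 2 genes fell, and FADS1 is shown with the FADS2 window nearer to it because the ratio of these neighbours is followed below. Each reads 5′ to 3′ on the strand of the gene, with CCAAT boxes and GC boxes of either strand in capitals.
MLXIPL, chr7:73624473-73624772, minus strand: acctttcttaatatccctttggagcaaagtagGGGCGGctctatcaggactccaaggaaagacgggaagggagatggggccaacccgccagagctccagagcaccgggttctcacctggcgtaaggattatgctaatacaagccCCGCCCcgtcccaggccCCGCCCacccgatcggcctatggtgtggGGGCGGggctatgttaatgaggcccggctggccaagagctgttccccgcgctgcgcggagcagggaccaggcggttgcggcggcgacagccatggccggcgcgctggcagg
ACACB, upstream start, chr12:109116337-109116636, plus strand: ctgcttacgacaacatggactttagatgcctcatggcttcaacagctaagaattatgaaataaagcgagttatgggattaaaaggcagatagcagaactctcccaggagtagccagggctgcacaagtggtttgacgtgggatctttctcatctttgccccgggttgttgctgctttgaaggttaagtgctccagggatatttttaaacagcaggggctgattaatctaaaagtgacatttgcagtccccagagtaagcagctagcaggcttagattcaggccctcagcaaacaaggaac
ACACB, downstream start, chr12:109154429-109154728, plus strand: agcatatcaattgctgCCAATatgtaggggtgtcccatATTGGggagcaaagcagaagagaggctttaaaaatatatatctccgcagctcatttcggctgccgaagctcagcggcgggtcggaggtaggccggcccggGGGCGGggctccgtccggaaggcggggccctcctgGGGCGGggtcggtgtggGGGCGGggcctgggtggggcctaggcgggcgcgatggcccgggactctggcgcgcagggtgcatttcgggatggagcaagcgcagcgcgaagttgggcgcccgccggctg
FADS1, chr11:61816954-61817253, minus strand: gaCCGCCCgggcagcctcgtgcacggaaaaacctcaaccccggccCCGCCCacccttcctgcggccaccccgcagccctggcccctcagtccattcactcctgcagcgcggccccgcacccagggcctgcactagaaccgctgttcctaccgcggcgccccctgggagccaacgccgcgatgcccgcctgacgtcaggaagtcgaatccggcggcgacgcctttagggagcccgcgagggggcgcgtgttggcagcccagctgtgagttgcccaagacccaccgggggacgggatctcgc
FADS2, chr11:61816154-61816453, plus strand: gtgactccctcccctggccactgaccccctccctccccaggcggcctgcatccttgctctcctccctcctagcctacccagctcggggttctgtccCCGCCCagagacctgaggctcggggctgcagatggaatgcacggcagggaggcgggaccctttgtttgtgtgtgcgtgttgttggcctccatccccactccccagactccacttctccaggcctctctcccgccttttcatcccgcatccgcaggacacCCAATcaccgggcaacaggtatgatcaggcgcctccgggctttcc

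The MLXIPL window held 4 GC boxes and no CCAAT box, with a G+C content of 65.0%. The windows of ACACB differed from each other: the upstream one held none of the 4 motifs and had 46.0% G+C, while the downstream one held 2 CCAAT boxes and 3 GC boxes and had 67.0% G+C. The counts are summed over the gene and do not show which start was used. FADS1 (minus strand) and FADS2 (plus strand) are transcribed towards and across each other, since the FADS1 start lies 599 bases to the right of this FADS2 start (800 bases from the other FADS2 start of the table). The FADS1 window held 2 GC boxes and the FADS2 window 1 GC box and 1 CCAAT box.

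**Figure D1:**
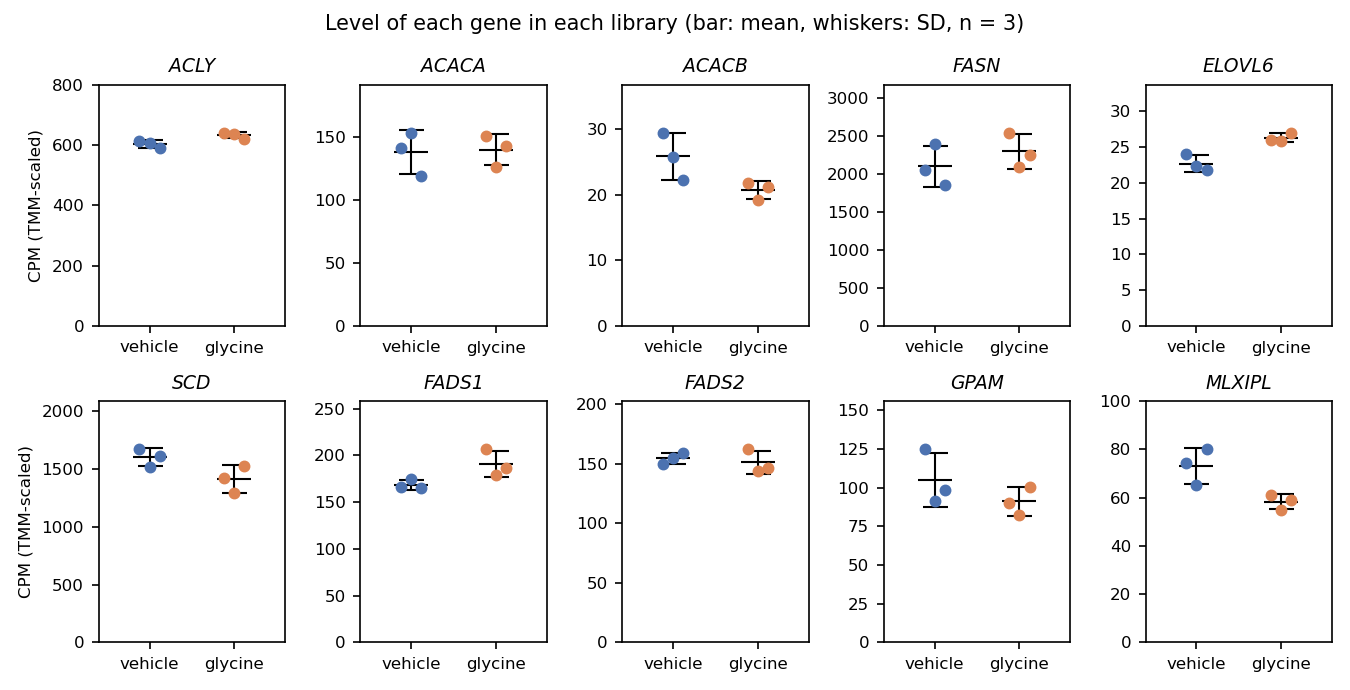
Level of each of the 10 genes in every library, in TMM-scaled CPM on linear axes that start at 0, with vehicle and glycine side by side. Points are libraries, the long bar is the mean and the whiskers are the SD of 3 libraries. The groups separate for ACLY, ACACB, ELOVL6, FADS1 and MLXIPL and overlap for the other 5 genes.

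MLXIPL encodes ChREBP, which pairs with MLX on carbohydrate response elements and drives glycolytic and lipogenic genes when glucose is plentiful. The gene (ENSG00000009950, chr7:73593194-73624543, minus strand) was measured at 74.4, 65.2 and 80.0 CPM in vehicle replicates 1 to 3 and at 60.9, 54.7 and 59.1 CPM in glycine replicates 1 to 3. Every glycine library lay below every vehicle library. The mean went from 73.2 ± 7.50 CPM to 58.3 ± 3.19 CPM (SD, n = 3), a change of −20.5% and a log2 change of −0.33 with a 95% interval of −0.50 to −0.16 (edgeR adjusted p = 0.0149). It passed the test in 16 of 17 alternative fits, with log2 changes between −0.41 and −0.26, and missed it without glycine replicate 2, its lowest library (edgeR adjusted p = 0.0642).

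ACLY, ATP-citrate lyase, makes the cytosolic acetyl-CoA from which fatty acids and sterols are built. Its gene (ENSG00000131473, chr17:41866908-41930542, minus strand) stood at 615, 607 and 591 CPM with vehicle and at 641, 638 and 622 CPM with glycine. The groups did not overlap, but the means of 604 ± 12.4 and 634 ± 10.3 CPM (SD, n = 3) were 4.91% apart and the log2 change of 0.07 (95% interval −0.07 to 0.21) missed the threshold (edgeR adjusted p = 0.538). An unnamed gene on the opposite strand overlaps 2.99% of its exon length. ACLY was the steadiest of the 10 genes among replicates, with a coefficient of variation of 2.05% with vehicle and 1.63% with glycine.

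The next step has a pair of isoenzymes. ACACA encodes acetyl-CoA carboxylase 1, a cytosolic enzyme that makes malonyl-CoA for synthesis, and ACACB encodes acetyl-CoA carboxylase 2, an enzyme of the outer mitochondrial membrane whose malonyl-CoA inhibits carnitine palmitoyltransferase 1 and so restrains fatty acid oxidation. ACACA (ENSG00000278540, chr17:37084988-37406818, minus strand) was at 141, 153 and 119 CPM with vehicle and at 150, 126 and 143 CPM with glycine. The libraries of the 2 groups were interleaved. The log2 change was 0.02 (95% interval −0.18 to 0.22; edgeR adjusted p = 0.917), and its sign turned in 3 of the 17 alternative fits.

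ACACB (ENSG00000076555, chr12:109116595-109268226, plus strand) was at 29.5, 25.8 and 22.3 CPM with vehicle and at 21.8, 19.2 and 21.3 CPM with glycine. The groups did not overlap, but vehicle replicate 3 and glycine replicate 1 nearly met. The mean went from 25.9 ± 3.57 to 20.7 ± 1.40 CPM (SD, n = 3), a change of −20.0% and a log2 change of −0.32 with a 95% interval of −0.53 to −0.11 (edgeR adjusted p = 0.0440). This call was fragile: it held in 10 of 17 alternative fits, with edgeR, DESeq2 or limma adjusted p between 0.0052 and 0.158. It was lost without vehicle replicate 1 (edgeR adjusted p = 0.158), without vehicle replicate 2 (0.0765) and without glycine replicate 1 (0.0559), 2 (0.155) or 3 (0.0785). The log2 change stayed between −0.42 and −0.23 in all 17.

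The balance of the isoenzymes was read within each library, where the scaling of libraries cancels. ACACB per ACACA, both per kilobase of exon, was 0.187, 0.151 and 0.168 with vehicle and 0.130, 0.136 and 0.134 with glycine. Each glycine library lay below each vehicle library, and the mean ratio was 0.169 ± 0.0180 against 0.133 ± 0.00314 (SD, n = 3), lower by 0.34 on the log2 scale (a fold of 0.792). With 3 libraries against 3 the 2-sided exact permutation test cannot go below p = 0.1, which is the value it gave (0.1 after adjustment over the 2 ratios tested). The cytosolic form was the more abundant transcript in every library.

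**Figure D2:**
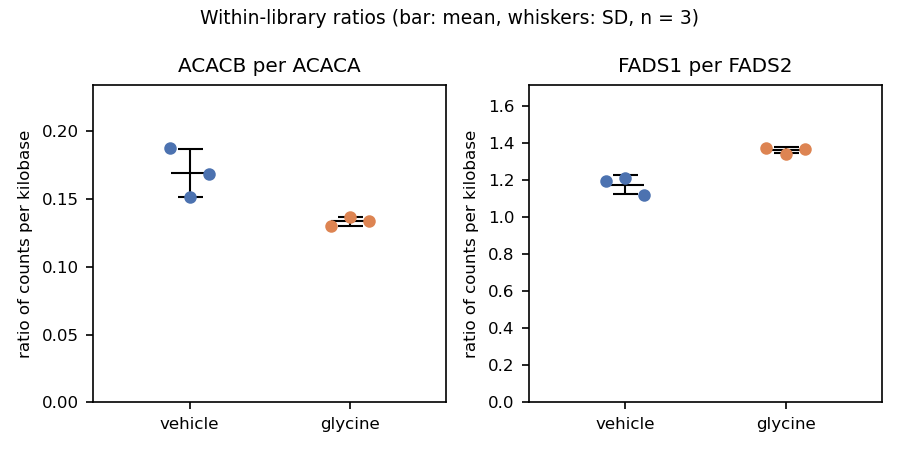
Ratio of ACACB to ACACA and of FADS1 to FADS2 within each library, in counts per kilobase of exon, on linear axes that start at 0. Points are libraries, long bars are means and whiskers are the SD of 3 libraries. ACACB per ACACA sat at 0.151 to 0.187 with vehicle and 0.130 to 0.136 with glycine, and FADS1 per FADS2 at 1.12 to 1.21 with vehicle and 1.34 to 1.37 with glycine.

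FASN, the multifunctional fatty acid synthase that releases palmitate, had the highest count of the 10 genes. The gene (ENSG00000169710, chr17:82078333-82098332, minus strand) was at 2045, 2394 and 1850 CPM with vehicle and at 2539, 2093 and 2251 CPM with glycine. The highest vehicle library exceeded 2 of the 3 glycine libraries. The means of 2096 ± 275 and 2294 ± 226 CPM (SD, n = 3) gave a log2 change of 0.13 with a 95% interval of −0.10 to 0.36 (edgeR adjusted p = 0.465), an interval that runs from a fold of 0.936 to one of 1.28.

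Palmitate is lengthened by ELOVL6, the elongase that prefers saturated and monounsaturated chains of this length. ELOVL6 (ENSG00000170522, chr4:110045846-110199199, minus strand) was at 24.0, 22.3 and 21.8 CPM with vehicle and at 26.0, 25.9 and 27.0 CPM with glycine. All glycine libraries lay above all vehicle libraries, with means of 22.7 ± 1.15 and 26.3 ± 0.612 CPM (SD, n = 3). The log2 change of 0.21 (95% interval 0.06 to 0.36) fell just short of the threshold (edgeR adjusted p = 0.0615). It passed in 3 of 17 alternative fits: with the trend over gene length removed (edgeR adjusted p = 0.0233), with the trend over G+C content removed (0.0364), and with a replicate block added to the length correction (0.0408).

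SCD, stearoyl-CoA desaturase, puts the first double bond into stearate and palmitate. The gene (ENSG00000099194, chr10:100347124-100364834, plus strand) was at 1668, 1515 and 1614 CPM with vehicle and at 1415, 1288 and 1525 CPM with glycine. The groups met at vehicle replicate 2 and glycine replicate 3. The mean was 1599 ± 77.3 against 1409 ± 119 CPM (SD, n = 3), and the log2 change of −0.18 (95% interval −0.36 to −0.0029) did not survive adjustment (edgeR adjusted p = 0.175, unadjusted p = 0.0469). It passed in 0 of the 17 alternative fits, which gave −0.25 to −0.12.

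FADS1 and FADS2 encode the delta-5 and delta-6 desaturases. These act at separate steps of the route from dietary linoleate and alpha-linolenate to arachidonate and the long omega-3 acids. FADS1 (ENSG00000149485, chr11:61799625-61829318, minus strand) was at 166, 174 and 165 CPM with vehicle and at 206, 180 and 186 CPM with glycine. The groups did not overlap, and glycine replicate 1 was the highest library. The mean was 168 ± 5.12 against 191 ± 14.1 CPM (SD, n = 3), or 0.18 higher on the log2 scale with a 95% interval of 0.03 to 0.32 (edgeR adjusted p = 0.105), and it passed only in the 2 of 17 alternative fits that remove the trend over gene length (edgeR adjusted p = 0.0316, and 0.0473 with the replicate block).

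FADS2 (ENSG00000134824, chr11:61792980-61867354, plus strand) was at 150, 155 and 159 CPM with vehicle and at 162, 144 and 147 CPM with glycine. The groups overlapped, and the log2 change of −0.03 (95% interval −0.18 to 0.11) missed the threshold (edgeR adjusted p = 0.780). Its sign turned with the length trend removed, where the value was 0.0025. Exons of the pair overlap by 490 bases on opposite strands, 4.79% of the exon length of FADS1. For FADS2 all overlaps make up 4.89% of the exon length, which adds 49 bases shared with FEN1 on the same strand. Whether the counting used strand is not given in the sources used here, so reads from the stretch shared by FADS1 and FADS2 cannot be told apart.

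FADS1 per FADS2, per kilobase of exon, was 1.19, 1.21 and 1.12 with vehicle and 1.37, 1.34 and 1.36 with glycine. These neighbours, whose starts are 599 bases apart in the windows printed above, thus stood in another proportion in each glycine library than in any vehicle library. The mean ratio was 1.17 ± 0.0510 against 1.36 ± 0.0161 (SD, n = 3), higher by 0.21 on the log2 scale, with the smallest p the 2-sided exact permutation test allows (p = 0.1, and 0.1 adjusted over the 2 ratios).

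GPAM, the mitochondrial glycerol-3-phosphate acyltransferase, commits acyl-CoA to glycerolipid. The gene (ENSG00000119927, chr10:112149864-112215377, minus strand) was at 125, 91.4 and 98.5 CPM with vehicle and at 90.1, 82.5 and 101 CPM with glycine. It was the most variable of the 10 genes with vehicle, where replicate 1 stood above the rest and the coefficient of variation was 16.8%. The means were 105 ± 17.6 and 91.1 ± 9.12 CPM (SD, n = 3), and the log2 change of −0.20 (95% interval −0.43 to 0.02) missed the threshold (edgeR adjusted p = 0.233). Without vehicle replicate 1 the log2 change was −0.07 (edgeR adjusted p = 0.686).

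**Figure D3:**
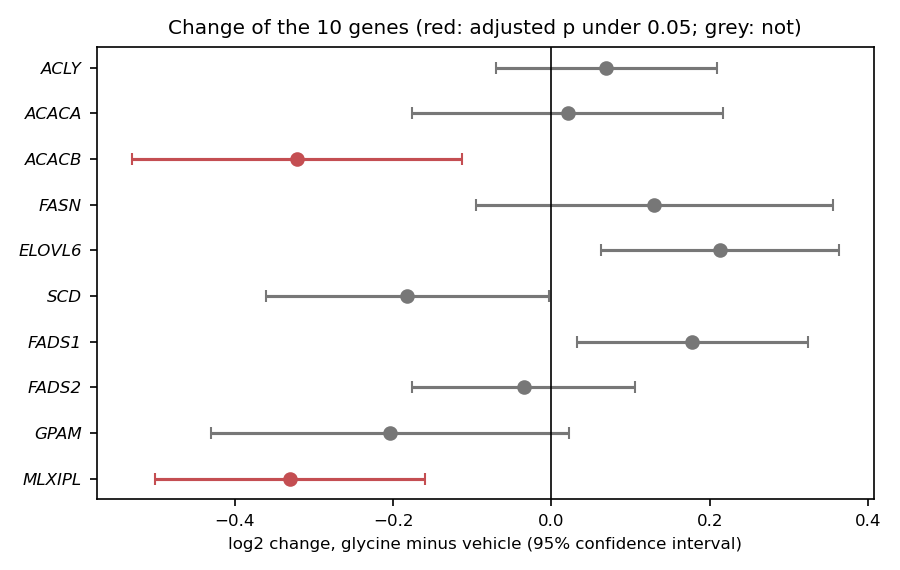
Change of each of the 10 genes with glycine, as the log2 difference between glycine and vehicle on the x axis, with bars for the 95% interval of the fit (n = 3 against 3). Red marks an edgeR adjusted p under 0.05 and grey the rest: MLXIPL at −0.33 and ACACB at −0.32 are the 2 red points, and the intervals of ELOVL6, FADS1 and SCD also lie to 1 side of 0.

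The level per length ordered the 10 genes into an abundant and a sparse set. With vehicle, SCD stood at 298 ± 14.4 RPKM, FASN at 224 ± 29.4 RPKM and ACLY at 116 ± 2.38 RPKM (SD, n = 3), each range separate from the next. A middle set followed: FADS1 at 16.5 ± 0.500, MLXIPL at 15.2 ± 1.56, FADS2 at 14.0 ± 0.431, GPAM at 10.7 ± 1.80 and ACACA at 10.6 ± 1.33 RPKM. Within it the ranges of FADS1 and MLXIPL, of MLXIPL and FADS2, and of GPAM and ACACA overlapped, so their order is not fixed. ELOVL6 at 3.11 ± 0.157 RPKM and ACACB at 1.78 ± 0.246 RPKM were the lowest.

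With glycine the same outer order was found, and the neighbours that changed places stood close together. SCD at 263 ± 22.1 RPKM and FASN at 245 ± 24.2 RPKM (SD, n = 3) now overlapped. MLXIPL at 12.1 ± 0.662 RPKM came after FADS1 at 18.6 ± 1.38 and FADS2 at 13.7 ± 0.880 RPKM, and it overlapped with ACACA at 10.7 ± 0.959 RPKM. ELOVL6 at 3.60 ± 0.0839 and ACACB at 1.43 ± 0.0967 RPKM remained last. Among all tested genes the mean level per length of SCD was at percentile 99.2, FASN at 99.1 and ACLY at 97.9, while ACACB was at 35.2.

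The 10 genes together took 0.463% to 0.534% of the counts of a library, and FASN, SCD and ACLY made up 85.9% to 86.8% of that share in every library. The lowest share (0.463%) and the highest (0.534%) were both in the glycine group, in replicates 2 and 1. Glycine replicate 2 was the lowest glycine library for 9 of the 10 genes, ACLY being the exception with its lowest value in replicate 3. ACACA, FASN and FADS1 ordered all libraries alike within both groups, with replicates 2, 1 and 3 from high to low with vehicle and 1, 3 and 2 with glycine. Without glycine replicate 2, 0 of the 10 genes passed the test in either direction. Calls over all tested genes also fell in that fit, to 617 higher and 655 lower in place of 1040 and 1013.

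**Figure D4:**
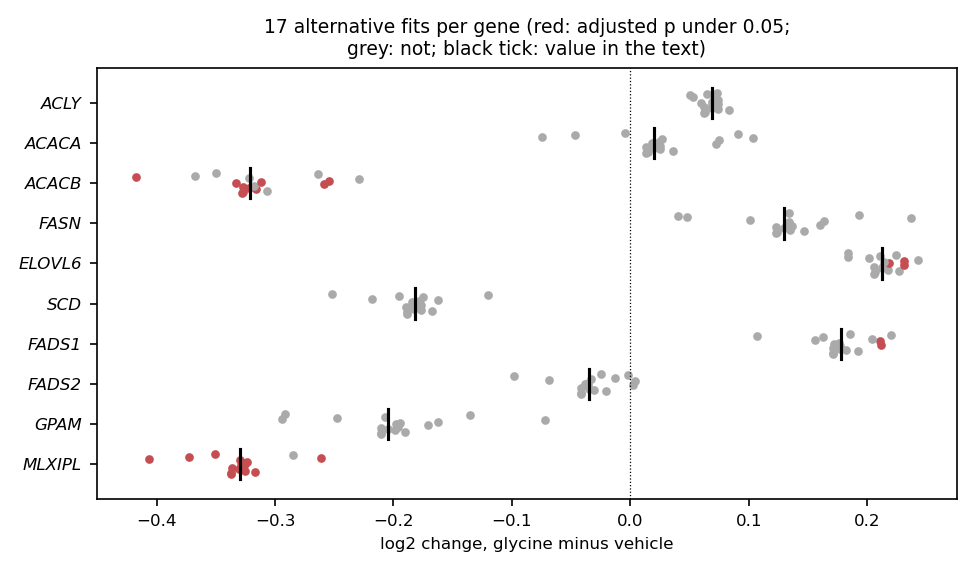
Log2 change (glycine minus vehicle, x axis) of each of the 10 genes under 17 alternative fits that change the scaling, the filter, the test, a trend correction, the replicate block or leave out 1 library. Red points have an adjusted p under 0.05, grey points do not, and the black tick is the value in the text. MLXIPL is red in 16 fits and ACACB in 10, while ELOVL6 is red in 3 and FADS1 in 2.

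The steps around the 10 genes were read from 10 lists of 91 further genes, of which 82 were tested. Of these, 3 rose, 11 fell and 68 did not pass the test, beside the 6.71% higher and 6.54% lower of all tested genes, and their median log2 change was 0.0038. The groups did not overlap for 38 of the 82, beside 31.6% of all tested genes. In none of the 10 lists did more than 3 genes pass in 1 direction, but the lists were short. They held 2 to 13 tested genes each. Falls of 3 genes were found among 9 tested ChREBP targets and among 11 tested glycerolipid genes.

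**Figure D5:**
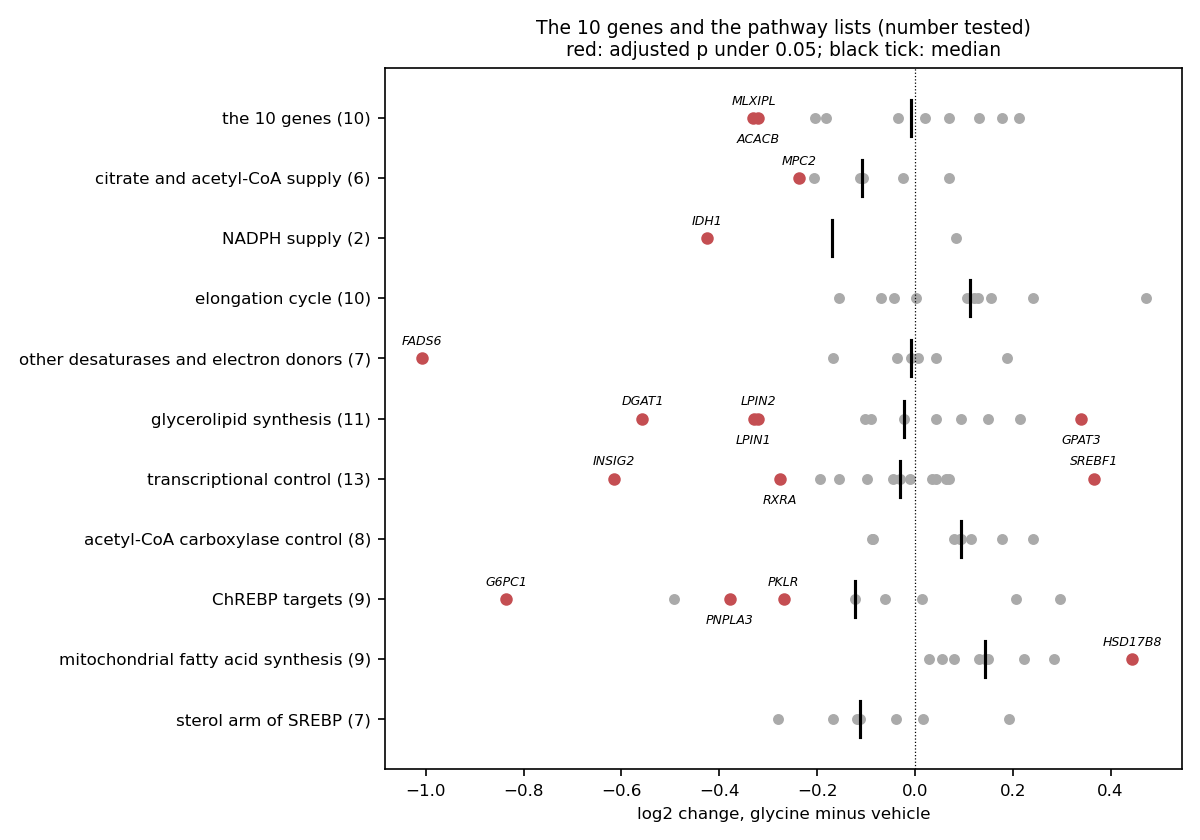
Log2 change with glycine (x axis) of the 10 genes and of each tested gene in 10 lists around the pathway, with the number tested in brackets. Red points have an edgeR adjusted p under 0.05 and are named, grey points do not, and black ticks are medians. The named points lie on both sides of 0, from FADS6 at −1.01 to HSD17B8 at 0.44.

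Upstream of ACLY, pyruvate must enter the mitochondrion and citrate must leave it. Of 6 genes for this supply, 0 rose and 1 fell, with a median log2 change of −0.11. MPC2, a subunit of the mitochondrial pyruvate carrier, fell from 76.6 ± 5.48 to 65.0 ± 2.61 CPM (SD, n = 3), which is −0.24 on the log2 scale (edgeR adjusted p = 0.0388), and 22.5% of its exon length is shared with DCAF6. The MPC2 call held in 11 of 17 alternative fits: it was lost with the replicate block (edgeR adjusted p = 0.0575) and without vehicle replicate 2 (0.0958) or 3 (0.0965) or glycine replicate 1 (0.0938), 2 (0.0601) or 3 (0.129). Its partner MPC1 was at −0.11 (edgeR adjusted p = 0.305) and the citrate carrier SLC25A1 at −0.11 (edgeR adjusted p = 0.300).

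Of 3 genes that supply NADPH, 2 were tested, of which 0 rose and 1 fell. IDH1, the cytosolic isocitrate dehydrogenase, was at 616, 612 and 625 CPM with vehicle and at 471, 449 and 460 CPM with glycine. Its groups were far apart, and the log2 change of −0.42 (edgeR adjusted p = 0.000708) passed in all 17 alternative fits. PGD, 6-phosphogluconate dehydrogenase of the pentose phosphate pathway, was at 333 ± 23.9 against 353 ± 15.1 CPM (SD, n = 3; log2 change 0.08, edgeR adjusted p = 0.491). ME1, malic enzyme, had 1 count in all 6 libraries together.

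Beside ELOVL6, 10 of 12 genes of the elongation cycle were tested, and 0 passed in either direction. Their median log2 change was 0.11. The members with the highest level per length were TECR, the last reductase of the cycle, at −0.07 (edgeR adjusted p = 0.637) and ELOVL2, an elongase of polyunsaturated chains, at −0.15 (edgeR adjusted p = 0.127). Of 8 other desaturases and electron donors, 7 were tested, 0 rose and 1 fell. That was FADS6, a sequence relative of the fatty acid desaturases, at the low level of 1.71 ± 0.0903 against 0.874 ± 0.279 CPM (SD, n = 3; log2 change −1.01, edgeR adjusted p = 0.00894). CYB5B and CYB5R3, of the electron chain that feeds such desaturases, were at 0.04 (edgeR adjusted p = 0.728) and −0.01 (edgeR adjusted p = 0.954); 35.1% of the exon length of CYB5B overlaps other genes.

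The glycerolipid list, which continues from GPAM, held more called genes: of 11 tested among 13, 1 rose and 3 fell, with a median log2 change of −0.02. Over all tested genes the shares were 6.71% higher and 6.54% lower. DGAT1, which completes triglyceride synthesis, was at 164, 170 and 177 CPM with vehicle and at 119, 117 and 112 CPM with glycine. The groups were widely separate and the log2 change was −0.56 (edgeR adjusted p = 6.23e-05), past the threshold in all 17 alternative fits; 10.7% of its exon length overlaps another gene. The phosphatidate phosphatases LPIN1 and LPIN2 fell by 0.33 (edgeR adjusted p = 0.0352) and by 0.32 (edgeR adjusted p = 0.0111) on the log2 scale. GPAT3, a microsomal relative of GPAM, rose by 0.34 (edgeR adjusted p = 0.0373), from 11.1 ± 1.16 to 14.0 ± 1.19 CPM (SD, n = 3). The LPIN2 call held in all 17 alternative fits. That of LPIN1 was lost with total counts only (edgeR adjusted p = 0.0561) and without vehicle replicate 1 (0.128) or glycine replicate 1 (0.0682) or 2 (0.136). That of GPAT3 was lost without vehicle replicate 3 (edgeR adjusted p = 0.113) or glycine replicate 1 (0.0752), 2 (0.154) or 3 (0.0558).

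Of 14 genes that control transcription of the pathway, 13 were tested, of which 1 rose and 2 fell, with a median log2 change of −0.03. Among all tested genes, 6.71% passed higher and 6.54% lower. SREBF1, the gene of SREBP-1, was at 93.6, 88.7 and 101 CPM with vehicle and at 120, 109 and 136 CPM with glycine. Every glycine library was above every vehicle library, and the log2 change was 0.37 (edgeR adjusted p = 0.00956); the call was lost without glycine replicate 3 (edgeR adjusted p = 0.0579). INSIG2, which holds the SREBP precursor in the endoplasmic reticulum, was at 82.7, 74.2 and 85.7 CPM with vehicle and at 51.5, 53.0 and 53.7 CPM with glycine. It fell by 0.62 on the log2 scale (edgeR adjusted p = 6.29e-05) and did so in all 17 alternative fits, whereas its relative INSIG1 had 4 counts in all 6 libraries together. RXRA, the partner of the liver X receptors that induce SREBF1, fell by 0.28 (edgeR adjusted p = 0.0148), a call lost without glycine replicate 3 (edgeR adjusted p = 0.0691).

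MLXIPL fell and SREBF1 rose, and other textbook targets of ChREBP and SREBP were read next. Of 10 genes known as ChREBP targets outside the 10 genes above, 9 were tested, 0 rose and 3 fell, with a median log2 change of −0.12. The shares of all tested genes were 6.71% higher and 6.54% lower. PKLR, liver pyruvate kinase, fell from 36.9 ± 1.45 to 30.6 ± 1.31 CPM (SD, n = 3; log2 change −0.27, edgeR adjusted p = 0.0185). PNPLA3, a lipase of lipid droplets, fell by 0.38 (edgeR adjusted p = 0.0257) and G6PC1, the catalytic subunit of glucose-6-phosphatase, by 0.84 (edgeR adjusted p = 0.0274) at a level of 1.67 ± 0.163 against 0.942 ± 0.294 CPM (SD, n = 3). The PKLR call was lost without vehicle replicate 2 (edgeR adjusted p = 0.0558) or glycine replicate 3 (0.0781), and that of PNPLA3 without vehicle replicate 1 (0.0959) or glycine replicate 2 (0.104). That of G6PC1 was lost without vehicle replicate 1 (edgeR adjusted p = 0.0712) or 3 (0.0689) or glycine replicate 1 (0.0762) or 2 (0.132). TXNIP, picked out after its values were seen because it is a widely used ChREBP target, was at 8.84 ± 3.14 against 10.1 ± 2.63 CPM (SD, n = 3; log2 change 0.21, edgeR adjusted p = 0.602). All 7 genes of the sterol arm of SREBP were tested and 0 passed, with a median of −0.11; SQLE, squalene epoxidase, was at −0.17 (edgeR adjusted p = 0.128) and FDPS, farnesyl diphosphate synthase, at −0.11 (edgeR adjusted p = 0.283).

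Acetyl-CoA carboxylase is also held in check by AMP-activated protein kinase and aided by small regulators. Of 9 such genes, 8 were tested and 0 passed, with a median log2 change of 0.09; STK11, the upstream kinase LKB1, was at −0.09 (edgeR adjusted p = 0.384) and MID1IP1, an activator of the carboxylase, at 0.12 (edgeR adjusted p = 0.454). THRSP, the relative of MID1IP1 known as Spot 14, had 7 counts in all 6 libraries. The separate mitochondrial pathway, which makes octanoate for lipoate, was tested in all 9 listed genes. All 9 had log2 changes above 0, with a median of 0.14, but only HSD17B8, a subunit of its ketoacyl reductase, rose past the threshold, from 10.4 ± 0.520 to 14.2 ± 1.72 CPM (SD, n = 3; log2 change 0.44, edgeR adjusted p = 0.0102), a call lost without glycine replicate 2 (edgeR adjusted p = 0.0525). Its acyl carrier protein NDUFAB1 was at 0.03 (edgeR adjusted p = 0.822) and its malonyl transferase MCAT at 0.08 (edgeR adjusted p = 0.480).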

How the data were processed

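RNA of 6 HepG2 cultures was sequenced and processed before deposit. Per the labels (the submitters' processing notes), the authors' tools were Trimmomatic 0.36, STAR 2.5.2b and featureCounts of Subread 1.5.2 on GRCh38. The deposited values were whole-number counts of reads per Ensembl gene, not normalized, in 1 file per sample; annotation release, strand setting and handling of multi-mapping reads are not given in the sources used here. Symbols came from GENCODE 29, which held 56898 of the 57500 gene IDs.

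Genes were kept by filterByExpr (minimum count 10, minimum total 15), libraries were scaled by TMM, and glycine was compared with vehicle by the edgeR 4.0.16 quasi-likelihood test (R 4.3.3), 3 libraries against 3, with Benjamini-Hochberg adjustment over the 15492 genes and a threshold of 0.05. Of these, 2053 passed, and 4225 had an unadjusted p under 0.05; the common biological coefficient of variation was 7.29%. CPM used TMM-scaled library sizes, and RPKM the exon length given with the counts. Ratios were compared by the 2-sided exact permutation test (scipy 1.17.1). On simulated counts for 15302 genes of this comparison, 182 of 200 genes changed by a log2 of 1 were recovered with 11 false calls, and 0 calls were made with none changed. The simulation gave every gene the common coefficient of variation. Changes as small as those of the 10 genes were not simulated, so the recovery does not apply to them. Replicates differed beyond sampling noise (chi-square per degree of freedom 7.61 to 29.6).

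All 10 genes are named; of each list around them, every gene past the threshold is named and, where a list had 0 or 1, also the 2 tested genes with the highest level per length. For the lists, 1 gene is not reported here and is left out of their counts. The members and lists were chosen with earlier results of these data known. Alternatives were 3 other scalings (DESeq2 1.42.0 size factors, upper quartile, total counts), 2 other filters (none, or 1 CPM in 3 libraries), the DESeq2 Wald test, limma-voom (limma 3.58.1), removal of the trend over gene length or over transcript G+C content (the latter chosen after the files were seen, since no genome was used), a replicate block with and without the length correction, and each library left out. Intervals are those of the fit and include counting error.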

Additional observations from a re-analysis of the deposited data

How the results depend on the processing

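Replicate numbers are shared by the groups, but same-numbered libraries did not deviate together (correlations of deviations −0.058, −0.027 and −0.0026). They were therefore not treated as pairs. Unequal numbers gave both signs. Taking vehicle replicates 1, 2 and 3 in turn, the correlation was positive against glycine replicates 3 (0.214), 1 (0.214) and 2 (0.180). It was negative against glycine replicates 2 (−0.154), 3 (−0.198) and 1 (−0.168). The replicate block joins equal numbers only, and a block in any other order was not tested. With the replicate block, 866 genes were called higher and 918 lower in place of 1040 and 1013, the 10 genes again had 0 higher and 2 lower, the lists had 3 higher and 11 lower, and both ratios gave an exact sign-flip permutation p of 0.25, the smallest possible; beside MPC2 no other named gene lost its call under the block.

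Of the 10 genes, 2 were called higher with the length trend removed, 1 with the G+C trend removed and 2 with block and length correction; 1 (MLXIPL) was called lower with total counts only, where ACACB lost its call (edgeR adjusted p = 0.0646), and 1 (MLXIPL) with limma-voom, where ACACB lost it too (limma adjusted p = 0.0504), and 0 to 2 on leaving out 1 library. The lists had 6 higher with the length trend removed, 5 with block and length correction, and 1 to 3 higher and 7 to 10 lower without 1 library. Over all genes, leaving out 1 library gave 587 to 926 higher and 655 to 1010 lower. Signs turned for ACACA (−0.075 without vehicle replicate 3, −0.046 without glycine replicate 1, −0.0048 without glycine replicate 3, up to 0.10 without vehicle replicate 2), FADS2 (0.0025 with the length trend removed, 0.0044 with the block too), CYB5R3 (0.0054 with total counts, 0.00045 with length, 0.0036 with block and length, 0.053 without vehicle replicate 3), CYB5B (−0.0010 without vehicle replicate 1, up to 0.092 without vehicle replicate 2) and NDUFAB1 (−0.012 without vehicle replicate 2, up to 0.075 without vehicle replicate 3). Of 629 values (37 named genes under 17 alternatives), 580 kept direction and side of the threshold, 33 lost the call, 5 gained it and 11 turned sign. The cause of these shifts was not tested.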
